A study of Mus musculus with 60 samples.

Results

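This account compares the lung with the forestomach of 5 vehicle mice, using the 5 D0 lung arrays and the 5 D0 forestomach arrays out of 60 samples in the series. The members were chosen by their titles alone, and each lung was set against the forestomach of the same mouse number, because both tissues of a number were hybridised on the same slide. The parent study gave benzo(ghi)perylene (BghiP), a polycyclic aromatic hydrocarbon, to male mice by oral gavage in olive oil for 28 days and took lung, liver and forestomach 72 h after the final dose. The mice were transgenic (the Muta Mouse strain carries a lacZ reporter), about 10 weeks old and housed singly. The D0 mice received olive oil alone, so the vehicle values come from oil-gavaged transgenic males, and an undosed or non-transgenic animal is not among them. RNA was taken from random sections of the right lung lobe and of the forestomach. It was labelled with Cy5 and hybridised with Cy3-labelled Universal Mouse Reference RNA, a pool from mouse cell lines, on 2-colour Agilent arrays without dye swaps.

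The lung is an organ of gas exchange. Its alveoli are lined by flat type 1 cells and by type 2 cells that secrete surfactant, its airways by ciliated and secretory club cells, and its walls hold a dense capillary bed, elastic tissue and resident macrophages. The forestomach is the upper, non-glandular compartment of the rodent stomach. Its lining is a stratified squamous epithelium whose basal cells divide and whose upper layers switch to other keratins and build a cornified envelope, over a wall of smooth muscle and next to the glandular stomach, where acid, mucus and digestive enzymes are made.

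Values are log2 ratios of tissue (Cy5) over reference (Cy3), and a difference is the lung value minus the forestomach value, so that positive differences are higher in lung. An error after ± is the standard error (SE) of the paired fit over 5 mice (n = 5) unless it is given as SD. A probe was called when its adjusted p (limma, Benjamini-Hochberg) was at most 0.05 and its difference at least 1.5-fold, and a gene with several probes was read from the brightest. The ratios were not background-subtracted, so ratios of dim probes lie near 0 and their differences are compressed. In RNA from whole tissue, fewer cells of a type and less RNA per cell cannot be told apart. Lung arrays lay in row 1 of every slide and forestomach arrays in row 2, so tissue and slide row cannot be told apart.

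The regulatory stretch before the start of a few genes that separate the tissues is shown here so that their values can be read with their sequence. These were picked because they hold CTCAAG or TGANTCA, and other genes with large differences do not, such as Krt10, whose stretch has no TGANTCA. Each is the 250 bases before the start (RefSeq, GRCm38.p6), on the gene's strand. For the surfactant genes Sftpa1 and Sftpb, capitals mark CTCAAG, the core of sites bound by the lung factor Nkx2-1, and TATAAA at 40 to 20 bases before the start. Sftpb holds no TATAAA there.
Sftpa1, chr14:41131538-41131787 (+): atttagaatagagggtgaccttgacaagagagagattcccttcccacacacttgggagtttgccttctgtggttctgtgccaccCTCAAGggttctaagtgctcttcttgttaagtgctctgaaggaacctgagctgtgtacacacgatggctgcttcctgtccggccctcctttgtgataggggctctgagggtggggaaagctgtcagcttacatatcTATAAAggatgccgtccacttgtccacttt
Sftpb, chr6:72304360-72304609 (+): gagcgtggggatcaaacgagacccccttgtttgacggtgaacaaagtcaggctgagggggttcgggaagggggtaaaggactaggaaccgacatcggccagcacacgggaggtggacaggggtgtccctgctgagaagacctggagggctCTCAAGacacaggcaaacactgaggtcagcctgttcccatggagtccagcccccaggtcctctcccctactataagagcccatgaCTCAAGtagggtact
For the cornified envelope genes Lor and Sprr2d and the suprabasal gene Krtdap, capitals mark TGANTCA, the site of AP-1 factors, and TATAAA in the same window.
Lor, chr3:92083143-92083392 (-): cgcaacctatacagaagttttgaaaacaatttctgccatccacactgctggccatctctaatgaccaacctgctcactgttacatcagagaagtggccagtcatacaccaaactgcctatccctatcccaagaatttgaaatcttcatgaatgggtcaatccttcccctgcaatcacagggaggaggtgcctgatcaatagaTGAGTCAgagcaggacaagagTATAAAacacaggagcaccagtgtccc
Sprr2d, chr3:92338890-92339139 (+): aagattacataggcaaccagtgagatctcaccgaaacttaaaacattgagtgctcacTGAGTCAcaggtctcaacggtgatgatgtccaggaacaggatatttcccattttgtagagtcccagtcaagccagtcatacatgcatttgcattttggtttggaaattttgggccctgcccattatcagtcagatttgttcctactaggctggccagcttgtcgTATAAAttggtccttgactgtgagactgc
Krtdap, chr7:30787655-30787904 (+): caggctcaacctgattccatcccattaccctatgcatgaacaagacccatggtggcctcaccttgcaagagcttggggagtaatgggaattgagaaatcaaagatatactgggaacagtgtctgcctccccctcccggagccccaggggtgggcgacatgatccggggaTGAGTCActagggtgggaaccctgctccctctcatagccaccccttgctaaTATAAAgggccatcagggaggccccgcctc

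These letters were searched in the 250 bases before the start, CTCAAG and TGANTCA on both strands and TATAAA on the gene's strand at 40 to 20 bases. CTCAAG was in 2 of 9 alveolar type 2 genes with a listed promoter and in 15.2% of all 27025 listed genes, so its share in these genes (22.2%) lay near that of all, while 4 of 9 club cell genes (44.4%) 2 of 9 suprabasal genes (22.2%), 2 of 22 cornified envelope genes (9.09%) and 1 of 14 smooth muscle genes (7.14%) held it. TGANTCA was in 9 of 22 cornified envelope genes (40.9%) and 4 of 9 suprabasal genes (44.4%), and also in 2 of 9 club cell (22.2%), 1 of 9 alveolar type 2 (11.1%) and 1 of 14 smooth muscle genes (7.14%), against 7.82% of all listed genes. The type 2 gene is Sftpb, where TGANTCA overlaps the marked CTCAAG nearest the start and is not capitalised. TATAAA was in 9 of 22 cornified envelope genes (40.9%) and in 2 of 9 each of the suprabasal, alveolar type 2 and club cell genes (22.2%), against 2.31% of all. A match is a description of the letters and not evidence of binding. On the reverse strand CTCAAG reads CTTGAG, which can overlap TGAGTCA, and TATAAA can lie within a CArG box. The 14 smooth muscle promoters held the CArG box, the letters bound by serum response factor, in 1 case (7.14%, against 1.62% of all), and 1 of 9 club cell and 1 of 22 cornified envelope genes also held it. Actg2, Tagln and Myh11 had no listed promoter, and only the strict form of the box within the 250 bases was searched. The TGTTTAC letters of forkhead factors were in 2 of 9 alveolar type 2, 1 of 9 suprabasal and 2 of 22 cornified envelope genes (3.54% of all), and the AACNGGTT letters of grainyhead-like factors in 1 of 9 suprabasal and 1 of 22 cornified envelope genes (2.0% of all).

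Some arrays held genes of tissues other than the labelled one. The lung of mouse 1 had 192 probes at least 2 log2 units above the other 4 lungs, and 152 of them were at least that much higher in forestomach. Its medians for the squamous suprabasal, cornified envelope and skeletal muscle lists were 3.37, 3.11 and 6.25, against -0.14 to -0.03, -0.01 to 0.14 and -1.49 to -0.45 in the other lungs. Krt1 (-0.03) and Krt10 (0.42) stayed low there. The forestomach of mouse 2 carried lung genes: Sftpc, the surfactant protein C gene, was 7.57 there and 0.10 to 1.5 in the other forestomachs. Glandular stomach genes were high in the forestomachs of mice 2 and 3, as shown by Gkn2 at 9.13 and 8.82 and the proton pump gene Atp4b at 7.60 and 6.92, and fat genes in that of mouse 5 (Adipoq 6.26). The part of these genes in each difference was not tested beyond leaving arrays out. The fit was repeated without the lung of mouse 1 and the forestomach of mouse 2 (without the block), an alternative chosen after the data were seen. A value in square brackets after a difference is that difference without these 2 arrays, and it is given for list genes and the largest differences where the fold moved by over 1.5 times, unless it is given in words. Between 34.9% and 58.6% of probes were well above background in Cy5 on lung arrays (mean 47.3%, SD 8.73, n = 5) and between 21.3% and 50.8% on forestomach arrays (mean 34.4%, SD 11.5, n = 5).

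**Figure D1:**
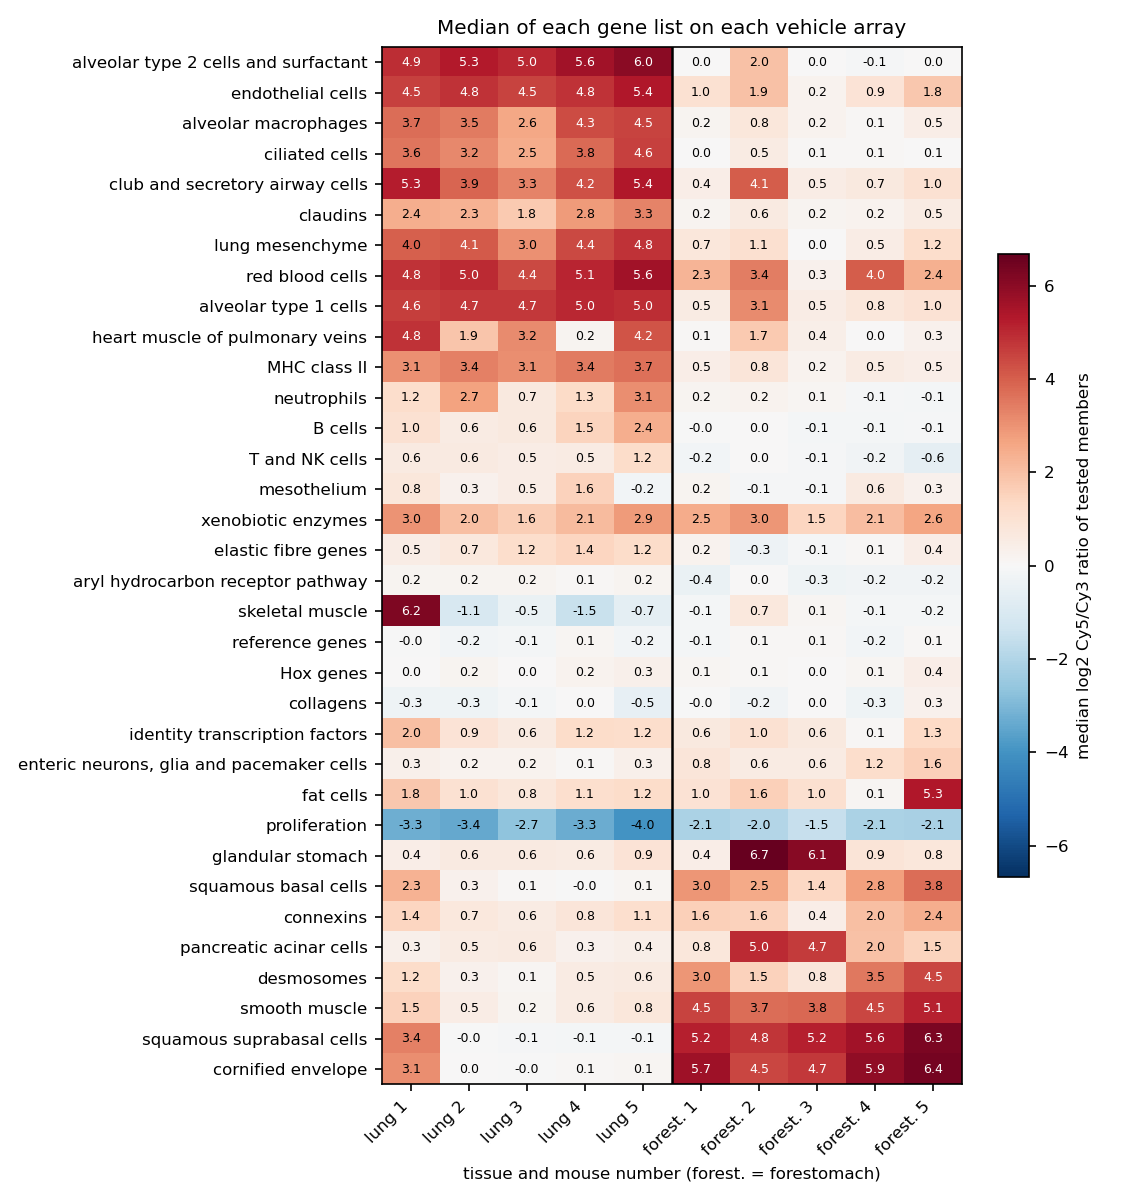
Median log2 Cy5/Cy3 ratio of the tested members of 34 gene lists (vertical axis) on each of the 10 arrays (horizontal axis, tissue and mouse number), red above 0 and blue below. The lung of mouse 1 stands out for skeletal muscle (6.25) and cornified envelope genes (3.11), and the forestomach of mouse 2 for club cell (4.06) and alveolar type 1 genes (3.13).

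The tissues differed at a large share of what could be measured. Of 24297 probes tested, 9924 (40.8%) were called, 5989 (24.6%) higher in lung and 3935 (16.2%) higher in forestomach. Read by the brightest probe, 45.6% of 12949 genes were called, 27.6% higher in lung and 18% higher in forestomach, and for 39.7% the 5 lung and 5 forestomach values did not overlap. These percentages are the background for each list below. At 16-fold or more there were 132 probes higher in lung and 167 higher in forestomach. Across all tested genes the median difference was 0.11. The split of calls depended on the scaling. Centring each array on its median without loess moved the median of all probes from 0.09 to 0.50, and 92.7% of its calls, against 60.3%, were then higher in lung. Among genes named below, that centring ended the calls of Aldh3a1, Bnc1, Col3a1, Col4a6, Col7a1, Cyp1b1, Cyp2s1, Gja1, Gja3, Gjb6, Gstp1, Hoxa2, Hoxb6, Hoxb7, Hprt, Itgb4, Klf4, Klf5, Krt15, Krt17, Krt5, Krt6a, Mcm2, Mcm3, Mki67, Osr1, Pgk1, Pkp3, Plin4, Reg3g, Rplp0, Top2a, Wnt2 and Wt1. Leaving out 1 mouse, in at least 1 of 5 fits, ended the calls of Bnc1, Bpifa1, Clps, Fgf10, Foxa1, Gata6, Gjb6, Gkn2, Hoxa2, Hoxb6, Kcne2, Krt79, Muc5ac, Myl4, Ovol1, Pgk1, Pkp3, Pkp4, Reg3g, Rplp0, Rspo1 and Wt1.

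Among the 12 largest differences higher in lung were genes of alveoli, macrophages and lung stroma. Chil3, a chitinase-like protein of alveolar macrophages, read 5.44, 5.72, 5.75, 5.27 and 6.66 in the lungs of mice 1 to 5 and -1.35, 1.39, -0.26, -1.73 and -2.62 in the forestomachs, a difference of 6.68 ± 0.61 [7.34] (adjusted p = 0.000251). Sftpc read 8.13, 8.48, 8.65, 8.26 and 8.74 in lung and 1.19, 7.57, 0.10, 1.5 and 0.35 in forestomach, a difference of 6.31 ± 1.06 (79.5-fold, adjusted p = 0.00244). The lungs lay close together for both genes, no forestomach overlapped them, and the forestomach of mouse 2 was the highest of its tissue; without that array and the lung of mouse 1 the Sftpc difference was 7.75. The others were Sftpd (6.57 ± 1.05 [8.02]), the membrane protein Mlc1 (6.33 ± 0.42 [6.96]), the type 1 cell genes Clic5 (6.27 ± 0.60 [7.16]) and Aqp5 (6.18 ± 0.85 [7.22]), Sftpa1 (6.11 ± 0.97 [7.47]), the methyltransferase Inmt (5.85 ± 0.72 [6.84]), Epas1, a hypoxia-inducible factor of lung vessels (5.83 ± 0.46 [6.47]), Limch1 (5.82 ± 0.47 [6.47]), complement component Hc (5.76 ± 0.31) and Cyyr1 (5.73 ± 0.27). For Epas1, Hc and Cyyr1, the forestomach ranges were 1.69 to 5.27, -0.10 to 1.60 and 0.06 to 1.85, against lung ranges of 8.50 to 9.21, 5.29 to 6.93 and 6.04 to 7.47.

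Among the 12 largest differences higher in forestomach were keratins and other squamous genes. Krt1, the keratin of differentiating squamous layers, read 8.29, 7.44, 8.38, 8.71 and 8.95 in the forestomachs and -0.03, -0.34, -0.38, -0.43 and -0.55 in the lungs (adjusted p = 2.15e-05). It was well above background on 5 forestomach arrays and on no lung array, including that of mouse 1. Below, "at least" before a fold marks a gene with no array well above background in 1 tissue, for which only a bound on the fold exists. The bound sets the mean Cy5 signal of the brighter tissue against, on each array of the dimmer, the lowest signal of any probe well above background or the probe's own signal if higher, after loess and Aquantile scaling, and it is open to dye bias. Being on Cy5 signals, it can exceed the fold of the ratios, as it did for Krt1, Krt17, Krt6a, Sprr2d, Gkn2, Tff1 and Nkx2-1, and for these only the measured ratios and the adjusted p are given, with no fold.

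The protease inhibitor Spink5 (-7.46 ± 0.77), the purine enzyme adenosine deaminase Ada (-7.44 ± 1.19), the Krt1 partner Krt10 (-7.42 ± 0.27), the interleukin-1 family member Il1f5 (-7.14 ± 0.51 [-7.94]), the cystatin Cst6 (-6.95 ± 0.62 [-7.77]), Krt6b (-6.92 ± 0.53 [-7.53]), Crct1 (-6.88 ± 1.19 [-8.34]), the glutathione transferase Gsta1 (-6.83 ± 0.62), the late cornified envelope gene Lce3a (-6.81 ± 1.19), Kprp (-6.79 ± 0.78 [-8.18]) and Psapl1 (-6.75 ± 0.91 [-7.76]) followed. Ada read 7.54, 6.09, 7.68, 7.68 and 7.87 in forestomach and 6.11, -1.23, -1.29, -1.88 and -2.07 in lung. The lung of mouse 1 and the forestomach of mouse 2 met at about the same value, so that the tissues overlapped for Ada by those 2 arrays. Without them its difference was -9.31, that of Lce3a -8.55 and that of Spink5 -8.60.

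**Figure D2:**
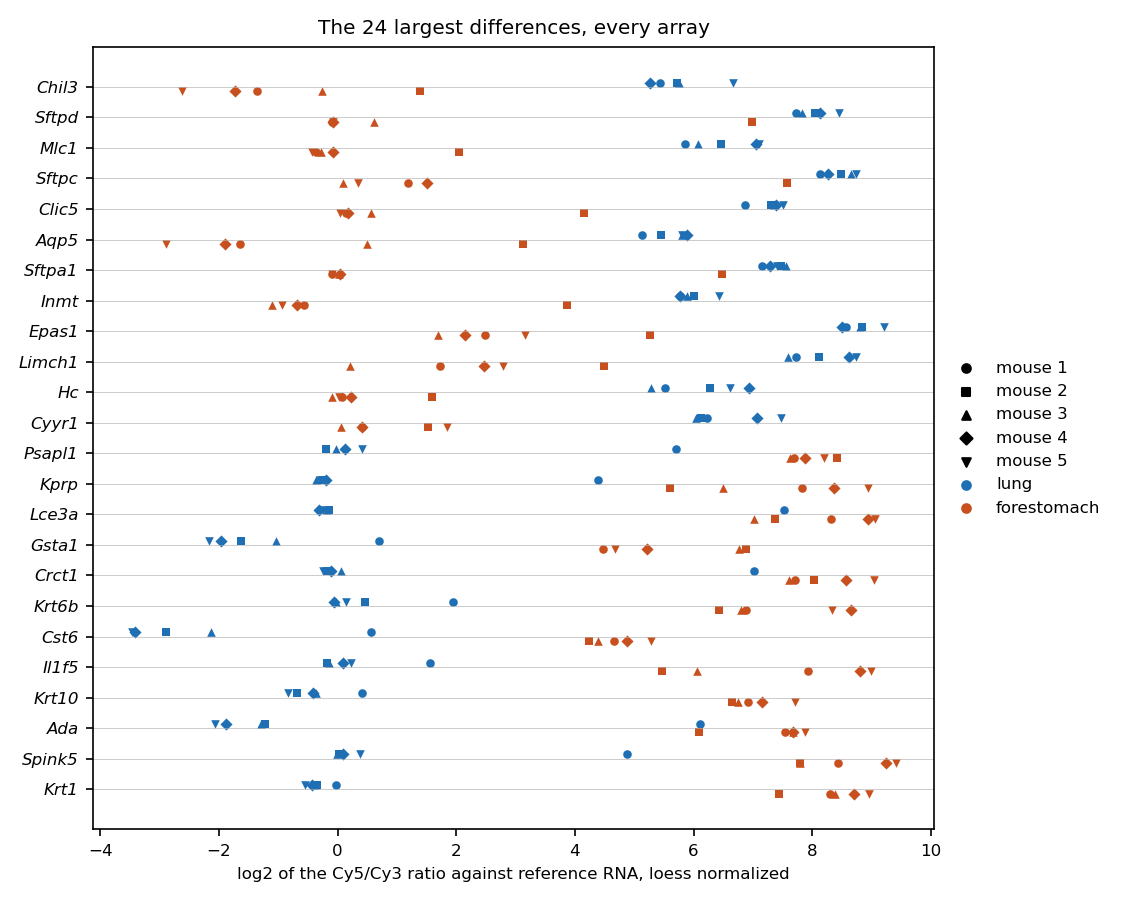
Log2 Cy5/Cy3 ratio (horizontal axis) of the 12 genes with the largest difference in each direction (vertical axis), 1 point per array, blue for lung and orange for forestomach, with the marker giving the mouse. Krt1 lies at -0.55 to -0.03 in all 5 lungs, while the lung of mouse 1 sits at 7.53 for Lce3a and 7.01 for Crct1.

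Genes of the alveolar epithelium were higher in lung. All 12 tested type 2 cell genes were called higher in lung (27.6% of all genes), with a median difference of 5.03 (5.57 without the 2 arrays named above, against 0.11 over all genes), and none overlapped between tissues. Sftpa1, which encodes surfactant protein A, read 7.16, 7.47, 7.56, 7.28 and 7.41 in lung and -0.10, 6.48, 0.02, 0.04 and -0.10 in forestomach. Sftpb, for the surfactant protein that spreads the lipid film, read 6.37, 6.67, 5.95, 6.82 and 7.33 in lung and 0.24, 5.85, 0.14, -0.19 and 0.11 in forestomach, a difference of 5.40 ± 0.89 [6.62] (adjusted p = 0.00228). Both were well above background on 1 forestomach array, that of mouse 2. The protease Napsa, which processes surfactant protein B, differed by 5.64 ± 0.48 [6.28], the phosphate carrier Slc34a2 by 4.31 ± 0.24, the lamellar body lipid transporter Abca3 by 2.92 ± 0.20 and the lecithin-forming enzyme Lpcat1 by 2.67 ± 0.22.

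Of 11 type 1 cell genes tested, 8 were called higher in lung, with a median of 2.27. The water channel Aqp5 read 5.13, 5.45, 5.80, 5.89 and 5.81 in lung and -1.65, 3.13, 0.49, -1.90 and -2.89 in forestomach, and Ager, the receptor for advanced glycation end products that marks type 1 cells, read 5.32, 5.61, 5.15, 5.78 and 6.47 and -0.15, 3.26, -0.31, -0.25 and -0.53. All 5 lungs were above all forestomachs for both, and the forestomach of mouse 2 was again the highest. Akap5 differed by 5.35 ± 0.42, podoplanin Pdpn by 2.60 ± 0.17 and caveolin Cav1 by 1.76 ± 0.12. Hopx (0.43 ± 0.17), Clic3 (0.37 ± 0.13) and Igfbp2 (-0.72 ± 0.28) were not called, and a second, dimmer probe of Hopx was called higher in lung (0.60 ± 0.19).

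Airway genes were measured in both tissues to different extents. Of 11 club and secretory genes, 10 were called higher in lung with a median of 2.66 (9 and 2.96 without the 2 arrays), and of 12 ciliated cell genes 11 were, with a median of 2.79. Most ciliated cell genes passed the filter on dim probes through the lung arrays. Only 2 of the 12 were above background on all 10 arrays, and 1 of these was called. Scgb1a1, the main secreted protein of club cells, read 7.60, 7.40, 7.60, 7.67 and 7.85 in lung and 5.18, 6.26, 3.01, 5.34 and 5.04 in forestomach, a difference of 2.66 ± 0.43 (adjusted p = 0.00209). It was higher in every lung, yet it was well above background on all 5 forestomach arrays as well. Foxj1, the regulator of motile cilia, read 3.32, 2.95, 2.20, 3.27 and 4.14 in lung and -0.07, 0.55, -0.09, -0.26 and -0.28 in forestomach and was at least 8.15-fold higher in lung, and Tekt1, a protein of the ciliary axoneme, at least 15.5-fold. The mucin Muc5b differed by 2.37 ± 0.52, the tracheal secretory gene Bpifa1 by 3.42 ± 0.92 and Gabrp was at least 8.99-fold higher in lung. The dynein gene Dnaic1 (-0.59 ± 0.29) was the 1 ciliated gene not called.

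Vessels and stroma followed the same direction. Of 24 endothelial genes 23 were called higher in lung with a median of 3.29, and 21 did not overlap. Cdh5, the cadherin of endothelial junctions, read 6.99, 7.27, 6.90, 7.42 and 8.12 in lung and 1.59, 3.17, 0.21, 1.65 and 2.84 in forestomach, a difference of 5.45 ± 0.33 (adjusted p = 7.43e-05). The 5 lungs were high and close together for it, with every forestomach below. Tmem100 differed by 4.92 ± 0.18, the lipase anchor Gpihbp1 by 4.41 ± 0.34, the angiopoietin receptor Tek by 3.92 ± 0.24, von Willebrand factor Vwf by 3.73 ± 0.25 and the lymphatic marker Lyve1 by 3.65 ± 0.35. Kdr was the exception: its brightest probe differed by 0.08 ± 0.21 and was not called, whereas its other probe was called higher in lung at 5.07 ± 0.33. Under median centring all 24 were called higher in lung, and with the processed signals of the scanner software 18 were.

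All 14 lung mesenchyme genes were called higher in lung, with a median of 2.40 (13 and 2.39 without the 2 arrays). Inmt read 5.77, 6.00, 5.89, 5.77 and 6.43 in lung and -0.57, 3.86, -1.10, -0.68 and -0.93 in forestomach. Tbx4 and Tbx5, T-box factors of the lung bud, differed by 4.33 ± 0.36 and 3.63 ± 0.14, and Tcf21, a factor of lipofibroblasts, by 2.63 ± 0.12. Fgf10, the growth factor of lung branching, showed the smallest difference in the list (0.85 ± 0.24), and Wnt2 was at least 1.81-fold higher in lung.

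**Figure D3:**
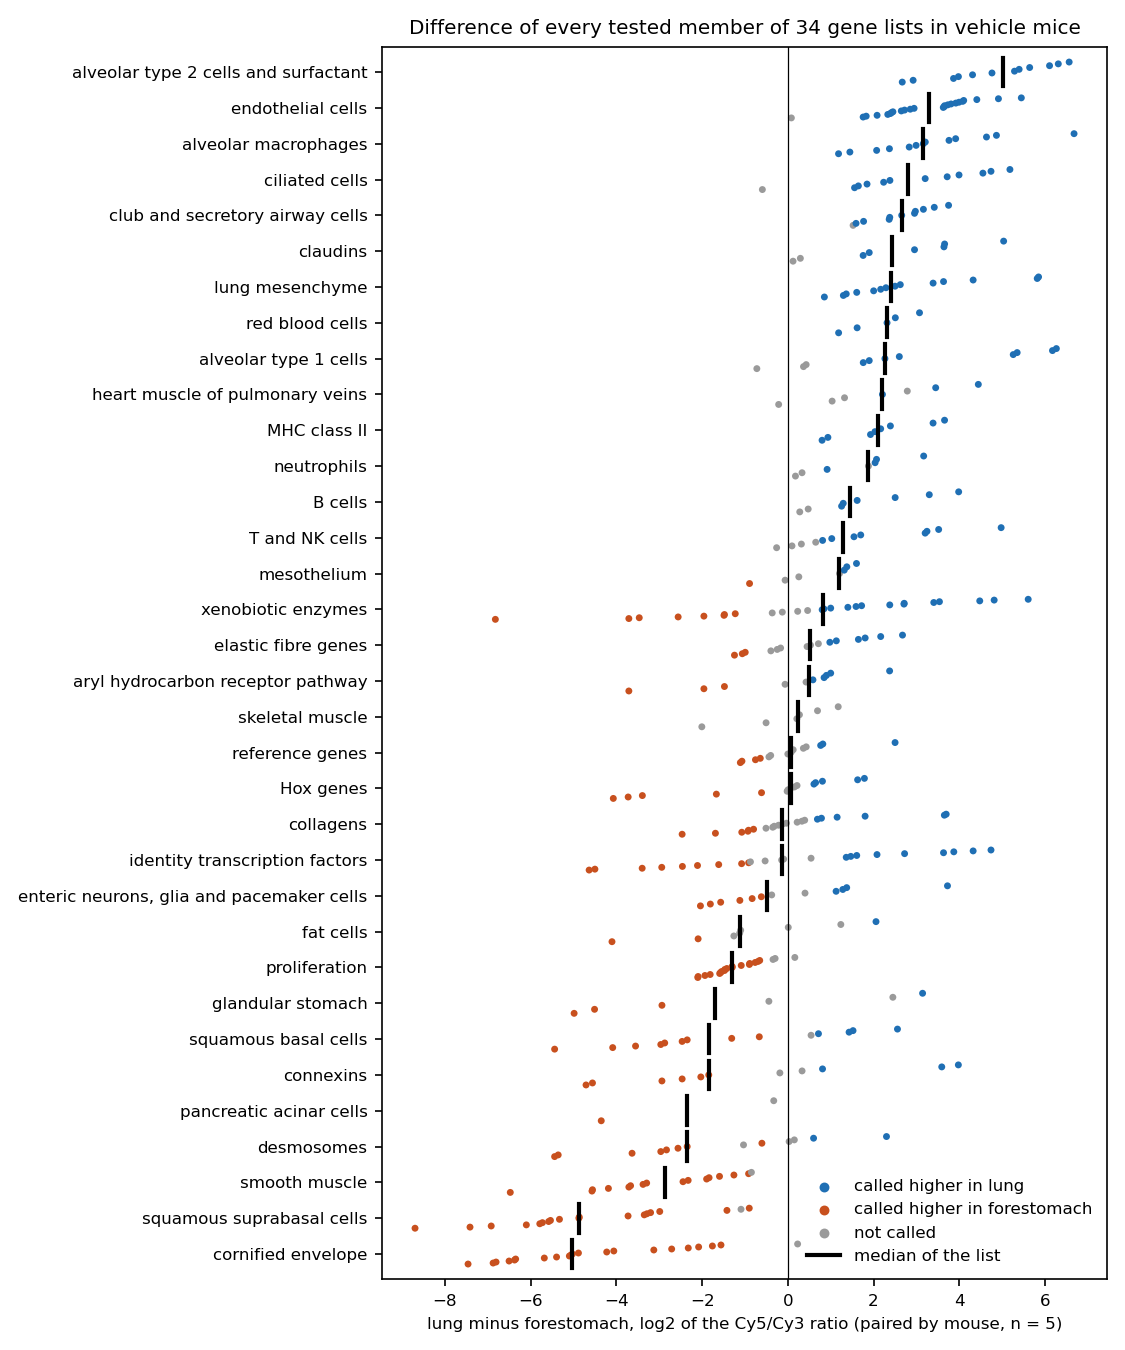
Lung minus forestomach difference (horizontal axis, log2) of every tested member of 34 gene lists (vertical axis, ordered by median), blue when called higher in lung, orange when called higher in forestomach and grey when not called, with the list median as a black line. Medians run from 5.03 for alveolar type 2 genes to -5.03 for the cornified envelope.

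Immune cell genes were mostly higher in lung. All 13 alveolar macrophage genes were called higher in lung with a median of 3.16 (11 and 3.27 without the 2 arrays). Most of the 13 passed the filter on dim probes through the lung arrays. Only 2 were above background on all 10 arrays, and these 2 were called. Siglecf, a surface lectin of alveolar macrophages, read 2.98, 2.70, 1.84, 3.87 and 4.52 in lung and -0.10, 0.00, -0.04, -0.06 and 0.07 in forestomach and was at least 5.92-fold higher in lung. The scavenger receptor Marco differed by 3.92 ± 0.37, the integrin Itgax by 3.16 ± 0.24 and the ribonuclease genes Ear1 and Ear2, whose close copies may share a probe's signal (not tested), by 4.87 ± 0.30 and 4.64 ± 0.31. The 8 MHC class II genes were all called higher in lung (median 2.10). Cd74, the invariant chain of class II antigen presentation, differed by 3.66 ± 0.22 and H2-Aa by 3.39 ± 0.13.

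Lymphocyte genes were less uniform. Of 12 T and NK cell genes 8 were called higher in lung (median 1.28), led by granzyme Gzma (4.98 ± 0.39) and Cd2 (3.52 ± 0.24). With the processed signals 9 were called and the median was 2.58. The T cell receptor component Cd3d was at least 7-fold higher in lung, while Cd3e (0.32 ± 0.23), Cd3g (0.65 ± 0.38) and Cd4 (-0.26 ± 0.16, and 0.60 under median centring) were not called. The lung of mouse 5 had the highest median for this list, 1.2 against 0.49 to 0.61 in the other lungs. Of 8 B cell genes 6 were called (Cd79b 3.99 ± 0.57, Ms4a1 at least 5.15-fold), 3 under median centring and 7 with the processed signals. Most passed the filter on dim probes through the lung arrays, and 0 were above background on all 10 arrays. Of 7 neutrophil genes 4 were called higher in lung, and 5 without the 2 arrays or under median centring. Only 2 were called with the processed signals or with mice 1 and 2 left out. With Cy5 alone 3 were called, and the median fell from 1.88 to 0.52. S100a8, which pairs with S100a9 in calprotectin, was at least 8.25-fold higher in lung, and S100a9 differed by 2.04 ± 0.28. All 5 red blood cell genes were called higher in lung, among them Hba-a1 for alpha globin (1.62 ± 0.25) and Alas2, the heme synthesis enzyme of red cells (2.51 ± 0.43).

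Heart muscle genes, which mouse pulmonary veins carry, varied between lungs. Myh6, atrial myosin, read 6.70, 5.12, 6.19, 0.70 and 7.05 in lung and 0.01, 3.29, -0.05, 0.00 and 0.30 in forestomach. In mouse 4 the lung was far below the other lungs and inside the forestomach range, whose highest array was that of mouse 2. Of 7 tested genes 3 were called higher in lung (Myh6 4.45 ± 0.99, Myl4 3.45 ± 0.91 and Actc1 2.21 ± 0.47). This count was 6 without mouse 4, 2 without mouse 3 and 5 under median centring. Myl7 differed by -0.21 ± 0.85 [-1.13] and by 0.88 without mouse 4.

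Genes of the upper layers of squamous epithelium were higher in forestomach. Of 19 suprabasal genes 18 were called higher in forestomach (18% of all genes) and none higher in lung, with a median of -4.88. The median was -6.53 without the 2 arrays, and -3.20 with 14 called under median centring. Krt10 read 6.92, 6.65, 6.75, 7.15 and 7.71 in forestomach and 0.42, -0.69, -0.37, -0.41 and -0.84 in lung, a difference of -7.42 ± 0.27 (adjusted p = 3.37e-05). All 5 lungs were far below all 5 forestomachs. Krt13 and Krt4, the keratin pair of internal squamous linings, differed by -5.79 ± 1.21 and -4.87 ± 1.12, and each overlapped between tissues because the lung of mouse 1 read 5.53 and 6.58. Without the 2 arrays these differences were -7.43 and -6.94.

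Krtdap, a secreted protein of differentiating keratinocytes whose promoter is printed above, read 6.33, 6.72, 6.80, 6.51 and 7.28 in forestomach and 5.80, 0.03, 0.01, 0.00 and -0.12 in lung. It was well above background in the lung of mouse 1 and no other lung, and the difference was -5.58 ± 0.96, or -6.75 without the 2 arrays. The serpin Serpinb5 differed by -6.10 ± 0.83 [-7.45], Lypd3 by -5.73 ± 0.86 [-6.86], Sbsn by -5.54 ± 0.83 [-6.61], the calmodulin-like Calml3 by -5.33 ± 0.82 [-6.53] and the fatty acid binding protein Fabp5 by -4.88 ± 0.43 [-5.70]. Krt17 and Krt6a were called higher in forestomach, where they read 2.20 to 4.31 and 0.29 to 2.07, and neither was well above background on any lung array (adjusted p = 0.000583 and 0.0062).

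The cornified envelope is the layer of cross-linked proteins that seals the dead surface cells. Of its 21 tested genes 20 were called higher in forestomach, with a median of -5.03. The median was -6.13 without the 2 arrays, and -3.08 under median centring, where 15 were called higher in forestomach and 1 higher in lung. Loricrin, Lor, its main structural protein, read 6.98, 7.88, 7.92, 7.29 and 7.81 in forestomach and 6.89, 1.52, 0.81, 1.41 and 1.76 in lung, a difference of -5.10 ± 0.96 (adjusted p = 0.00402), or -6.13 without the 2 arrays, since the lung of mouse 1 read close to the forestomachs. Sprr2d, a small proline-rich protein, read 5.75, 2.62, 3.47, 6.36 and 6.81 in forestomach and 0.05, -0.04, 0.14, -0.02 and -0.25 in lung. For these genes every forestomach was above every lung, and Sprr2d was not well above background on any lung array (adjusted p = 0.000909). Corneodesmosin Cdsn differed by -6.51 ± 0.62 [-7.48], Sprr1a by -6.38 ± 0.52 [-7.24], the desquamation protease Klk5 by -6.35 ± 0.40 [-7.07], the skin protease Asprv1 by -5.68 ± 1.01 [-6.91] and the cross-linking enzyme Tgm1 by -4.23 ± 0.41 [-5.03]. The brightest probe of Tgm3 was not called (0.23 ± 0.12), while its other probe was called higher in forestomach (-2.34 ± 0.71). Sprr and Lce genes are families of close copies, and whether their probes share signal was not tested.

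Basal cell genes split. Of 14 tested, 9 were called higher in forestomach and 4 higher in lung, with a median of -1.83. Under median centring 5 were called each way, with a median of -0.55. Higher in forestomach were Krt14 (-4.09 ± 0.67 [-4.79]), Krt15 (-3.55 ± 0.72 [-4.46]), Krt5 (-2.87 ± 0.60 [-3.54]), the desmosomal cadherin Dsg3 (-2.96 ± 0.60), the p53 target Perp (-5.44 ± 0.53 [-6.53]), Col17a1 (-2.47 ± 0.38), Itgb4 (-1.31 ± 0.18), Dsc3 (-2.35 ± 0.56) and Bnc1 (-0.67 ± 0.19, and 0.11 with Cy5 alone). Krt14 read 3.75, 4.24, 3.63, 3.85 and 4.45 in forestomach and 2.98, -0.78, -0.53, -0.79 and -1.40 in lung. Every forestomach was above every lung, and the lung of mouse 1 was the highest lung. Among those higher in lung were the laminin-332 chain Lamb3 (1.52 ± 0.23), the integrin Itga6 (1.43 ± 0.25) and dystonin Dst (0.72 ± 0.10). The probes of Trp63, the p53 relative that specifies basal cells, differed in sign: the brightest read higher in lung and was not called (0.54 ± 0.13), and the other was called higher in forestomach at -5.04 ± 0.65.

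Keratins and the epidermal differentiation complex, the cluster of envelope and S100 genes on chromosome 3, were followed gene by gene. Both families were chosen after their values were seen and are described with no test of either family as a whole. Of 53 keratin genes in the RefSeq annotation 29 were tested, 17 were called higher in forestomach, 3 higher in lung (Krt7 3.05 ± 0.24, Krt222 1.16 ± 0.17 and Krt79 0.69 ± 0.23, whose call was lost without mouse 1, 2, 3 or 4, without the block and without the 2 arrays) and 9 were not called, with a median of -2.15. Of the simple epithelial keratins, Krt8 (0.39 ± 1.02), Krt18 (1.81 ± 0.99) and Krt19 (1.21 ± 1.06 [2.19]) were not called, and 7 keratins called higher in forestomach were not well above background on any lung array. Of 69 genes of the complex listed there 45 were tested, 34 were called higher in forestomach and 5 higher in lung, with a median of -4.06. Those higher in lung were S100a8, S100a9, S100a13 (1.36 ± 0.19), S100a4 (0.61 ± 0.10, not called without the 2 arrays or with Cy5 alone) and trichohyalin Tchh (at least 1.83-fold). Under median centring the calls were 10 and 4 for keratins and 26 and 5 for the complex (forestomach and lung), with medians of -0.67 and -1.99. With all 10 arrays above background, 13 genes of the complex were tested, 6 and 3 were called and the median was -0.006.

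**Figure D4:**
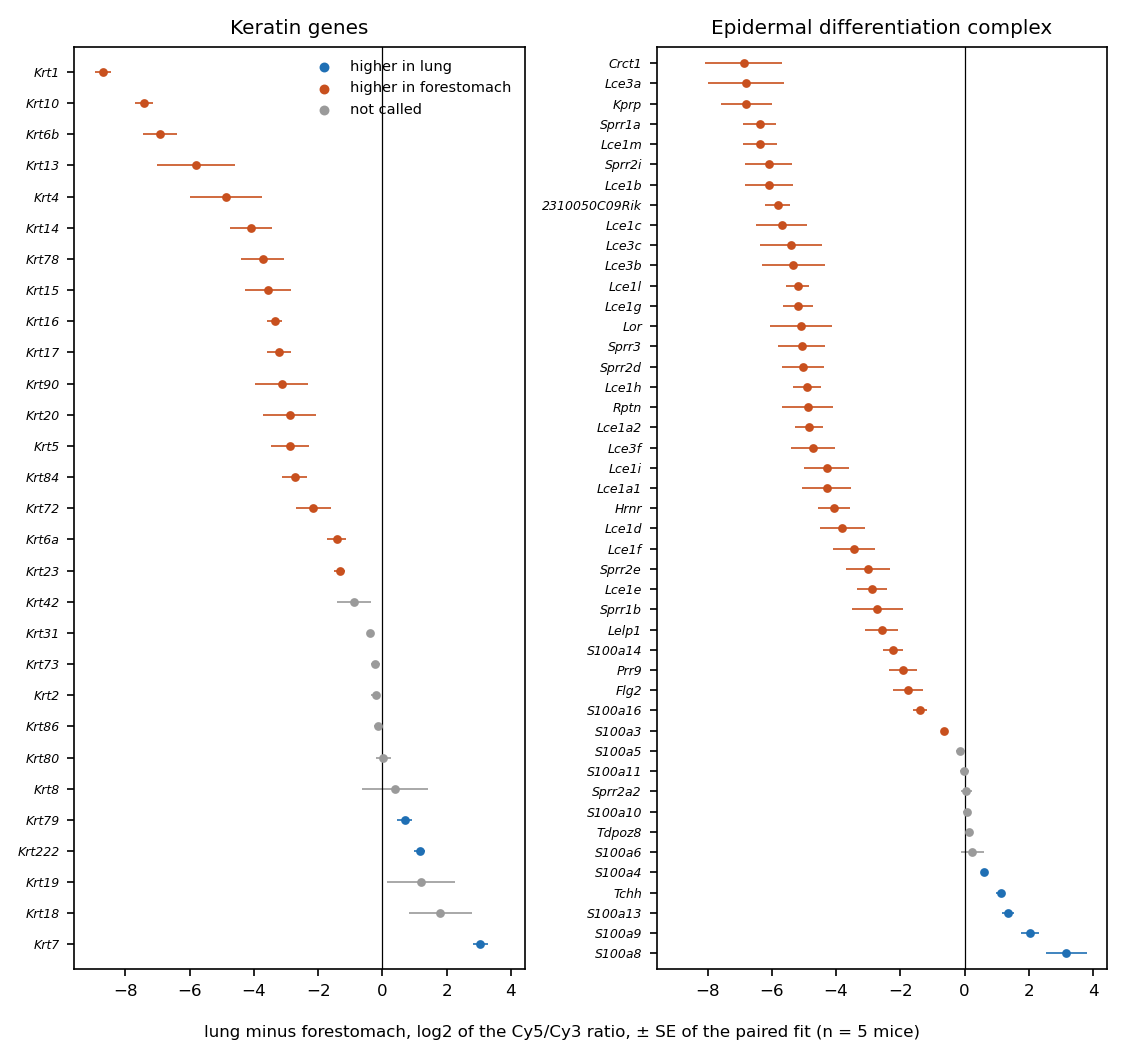
Lung minus forestomach difference (horizontal axis, log2, with the SE of the paired fit over 5 mice) of 29 keratin genes (left) and 45 genes of the epidermal differentiation complex (right), each ordered by its difference and coloured by call. Krt10 lies at -7.42 and Krt7 at 3.05, the 7 keratins not well above background in lung are drawn at their measured ratios, and 34 of 45 genes of the complex are called higher in forestomach.

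Genes of the muscle wall were also higher in forestomach. Of 16 smooth muscle genes 15 were called higher in forestomach and none higher in lung, with a median of -2.87. Actg2, the enteric actin, read 6.56, 5.64, 6.60, 6.25 and 6.94 in forestomach and 0.31, -0.97, -0.07, 0.09 and 0.23 in lung, a difference of -6.48 ± 0.13 (89.1-fold, adjusted p = 6.52e-06). The 5 forestomachs lay together and far above the 5 lungs. Myosin light chain Myl9 differed by -4.57 ± 0.22, transgelin Tagln by -4.56 ± 0.13, calponin Cnn1 by -4.19 ± 0.12, Acta2 by -3.71 ± 0.16, desmin Des by -3.29 ± 0.47 [-4.21] and the myosin heavy chain Myh11 by -2.45 ± 0.12. Myocd, a coactivator of this programme, was the member not called (-0.85 ± 0.31). Under median centring 11 of 16 were called, with a median of -1.77.

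Genes of enteric nerves, glia and pacemaker cells went both ways, 6 of 12 higher in forestomach and 4 higher in lung (3 and 5 under median centring). The neuropeptide Vip was at least 2.62-fold higher in forestomach, and Prph and Tubb3, cytoskeletal genes of neurons, differed by -1.81 ± 0.28 and -1.57 ± 0.39. Kit, the receptor of pacemaker cells and also of mast cells, was higher in lung (3.73 ± 0.18), as were Ano1 (1.13 ± 0.20), Snap25 (1.28 ± 0.18) and Stmn2 (1.37 ± 0.17). Kit read 5.98, 6.18, 5.64, 6.35 and 7.18 in lung and 2.58, 2.42, 1.28, 2.40 and 4.01 in forestomach, without overlap.

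Genes of neighbouring tissues were high on some forestomach arrays and low on others. Only 6 of 16 glandular stomach genes passed the filter on dim probes, and of those Tff1, a peptide of surface mucous cells (1.96 to 7.10 in forestomach, adjusted p = 0.00113), Gkn2 (adjusted p = 0.0291) and the gastric mucin Muc5ac (-2.94 ± 0.89) were called higher in forestomach. Gkn2 read 2.21, 9.13, 8.82, 1.85 and 0.39 in the forestomachs and -0.05, 0.02, 0.00, -0.13 and 0.02 in the lungs. The forestomachs of mice 2 and 3 were above the others, and neither Gkn2 nor Tff1 was well above background on any lung array. Without the 2 arrays the calls of Gkn2 and Muc5ac were lost, and the Muc5ac difference was -2.10. The potassium channel subunit Kcne2 was higher in lung (3.15 ± 0.91 [4.08]), and ghrelin Ghrl differed by -0.44 ± 0.55 (0.84 under median centring). The pancreatic colipase gene Clps differed by -4.35 ± 1.30, read 0.60, 8.75, 8.88, 3.13 and 1.79 in the forestomachs and also lost its call without the 2 arrays (-3.29). Of 8 fat cell genes, Fabp4 (-4.10 ± 0.37 [-4.81]) and Plin4 (-2.09 ± 0.42) were called higher in forestomach and lipoprotein lipase Lpl (2.06 ± 0.50) higher in lung. Adipoq read 1.22, 1.65, 0.79, -0.21 and 6.26 in forestomach, with mouse 5 the highest, and was not called (-1.26 ± 0.82).

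No skeletal muscle gene of 6 was called, and the median of 0.24 became -0.47 without the 2 arrays, with 2 then called higher in forestomach. Tnnc2 differed by 0.27 ± 1.22 [-0.69], and by -1.28 without mouse 1, when the median of the list was -0.87. Of 7 mesothelium genes, Msln (1.60 ± 0.21), Rspo1 (1.38 ± 0.42) and Upk1b (1.32 ± 0.14) were called higher in lung and Wt1 (-0.89 ± 0.25, not under median centring) higher in forestomach.

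Cell junctions differed by type. Claudins form tight junctions, and 6 of 8 tested were called higher in lung and none higher in forestomach (median 2.43, and 1.68 under median centring). Cldn3 read 5.62, 5.58, 5.50, 5.91 and 6.13 in lung and 0.24, 2.31, 0.15, 0.41 and 0.45 in forestomach, a difference of 5.04 ± 0.35 (adjusted p = 0.000104), with all lungs above all forestomachs. Cldn7 differed by 3.64 ± 0.46, and Cldn18, whose splice forms mark lung and stomach, was at least 3.51-fold higher in lung. Desmosomes, which bind squamous cells to each other, went the other way: 8 of 13 genes were called higher in forestomach and 2 higher in lung (median -2.35, -2.87 without the 2 arrays and -1.46 under median centring). Plakophilin Pkp1 (-5.36 ± 0.95 [-6.57]), Perp (-5.44 ± 0.53 [-6.53]), Dsc1 (-3.64 ± 0.85 [-4.61]), Dsg1b (-2.83 ± 0.68 [-3.56]) and desmoplakin Dsp (-2.56 ± 0.32 [-3.27]) were higher in forestomach. Pkp2 (2.30 ± 0.39) and Pkp4 (0.60 ± 0.14) were higher in lung. Pkp3 differed by -0.60 ± 0.21, and by 0.29 under median centring.

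Connexins, the subunits of gap junctions, also split by member, with 6 of 11 called higher in forestomach and 3 higher in lung (4 and 3 under median centring). Gjb2 (-4.71 ± 0.48 [-5.80]), Gjb1 (-2.47 ± 0.24), Gja1 (-2.03 ± 0.41) and Gjb6 (-1.85 ± 0.60 [-2.68]) were among those higher in forestomach. The vascular connexins Gja5 (3.98 ± 0.31) and Gja4 (3.59 ± 0.17) and Gja3 (at least 1.56-fold) were higher in lung.

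Collagens went both ways. Of 21 genes 6 were called each way, with a median of -0.13. Under median centring 8 were called higher in lung and 2 higher in forestomach, with a median of 0.40. Col4a3 and Col4a4, chains of the alveolar basement membrane, were higher in lung (at least 8.65-fold and 3.65 ± 0.21). Col4a3 read 3.49, 3.54, 2.80, 4.33 and 5.02 in lung and -0.03, 0.46, 0.08, -0.13 and 0.32 in forestomach. The tissues were far apart for it, whereas Col4a5 was not called (-0.13 ± 0.13, and 0.61 under median centring) and Col4a6 was higher in forestomach (-0.93 ± 0.18). Col17a1 and Col7a1, which anchor squamous basal cells, were higher in forestomach (-2.47 ± 0.38 and -1.69 ± 0.21). The fibrillar chains Col1a1 (-0.35 ± 0.19) and Col1a2 (0.39 ± 0.15) were not called, and Col3a1 was higher in forestomach (-0.80 ± 0.17). Of 15 elastic fibre genes 6 were called higher in lung and 3 higher in forestomach (median 0.53), but under median centring 9 were called higher in lung and none higher in forestomach (median 0.99). The assembly factors Fbln5 (2.68 ± 0.22), Mfap4 (2.17 ± 0.24) and Ltbp4 (1.65 ± 0.18) were higher in lung, while elastin Eln itself was not called (0.71 ± 0.29).

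Transcription factors that specify either tissue divided 9 to 9 among 23 tested. Higher in lung were Nkx2-1, the factor of lung epithelium (adjusted p = 9.77e-05), the forkhead factors Foxa2 (4.74 ± 0.80 [5.67]), Foxa1 (1.47 ± 0.42) and Foxf1 (1.36 ± 0.14), Gata6 (2.08 ± 0.56), Sox17 (2.73 ± 0.30), Tbx2 (1.61 ± 0.32), Tbx4 and Tbx5. Nkx2-1 read 3.66, 3.93, 3.35, 4.52 and 4.85 in lung and 0.11, 0.66, 0.06, 0.01 and 0.09 in forestomach, without overlap, and was well above background on no forestomach array. Higher in forestomach were Pitx1 (-4.64 ± 0.79), the barrier regulators Grhl3 (-4.50 ± 0.60 [-5.81]) and Grhl1 (-3.40 ± 0.45 [-4.25]), Ehf (-2.94 ± 0.25), Ovol1 (-2.46 ± 0.63 [-3.20]), the stomach mesenchyme factor Barx1 (at least 2.73-fold), Klf4 (-1.61 ± 0.19), Klf5 (-1.08 ± 0.21) and Osr1 (-0.91 ± 0.13). Pitx1, a hindlimb and pituitary factor, read 4.93, 5.04, 4.51, 5.14 and 5.97 in forestomach and 4.31, -0.36, -0.33, -0.78 and -0.43 in lung, where mouse 1 stood apart, and differed by -5.61 without the 2 arrays. Sox2, which both foregut linings use, was not called (-0.53 ± 0.34). The median of these factors was -0.14, but 0.19 with the processed signals and 0.27 under median centring, where 10 were called higher in lung and 6 higher in forestomach.

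Hox genes mark position along the body axis. Of 15 tested, 5 were called each way (median 0.07), and under median centring 5 higher in lung and 3 higher in forestomach. The neighbours Hoxc4, Hoxc5 and Hoxc6 were higher in forestomach (-3.73 ± 0.61 [-4.37], -3.39 ± 0.55 and -4.07 ± 0.58), as were Hoxb7 (-1.67 ± 0.32) and Hoxb6 (-0.61 ± 0.13, but 0.16 under median centring). Hoxa5, which lung development needs, Hoxb5, Hoxb4, Hoxa3 and Hoxa2 were higher in lung (1.79 ± 0.20, 1.63 ± 0.14, 0.81 ± 0.15, 0.65 ± 0.11 and 0.61 ± 0.15). Hoxc6 read 0.12, -1.81, -1.19, -1.01 and 0.75 in forestomach and -3.66, -4.76, -3.64, -5.38 and -6.07 in lung, with no overlap.

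Enzymes that handle foreign compounds are of interest because BghiP and other aromatic hydrocarbons are oxidised and conjugated by them. Of 26 tested, 14 were called higher in lung and 8 higher in forestomach (median 0.82, and 15 and 4 called under median centring), and 20 did not overlap between tissues. Among those higher in lung were oxidases: the cytochromes P450 Cyp4b1 (5.61 ± 0.40), Cyp2b10 (3.54 ± 0.42 [4.2]) and Cyp2f2 (1.59 ± 0.23) and the flavin monooxygenases Fmo1 (4.48 ± 0.27) and Fmo2 (1.72 ± 0.39). Cyp4b1 read 7.66, 8.18, 7.56, 8.53 and 8.54 in lung and 2.97, 3.24, 0.46, 1.89 and 3.86 in forestomach, so that the lowest lung lay well above the highest forestomach. The sulfotransferase Sult1a1 (3.41 ± 0.36), the glutathione transferase Gsta3 (2.72 ± 0.18) and the carboxylesterase Ces1d (2.71 ± 0.39) were also higher in lung.

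Higher in forestomach were Gsta1 (-6.83 ± 0.62), the quinone reductase Nqo1 (-3.71 ± 0.37), Gsto1 (-3.47 ± 0.59), Gsta4 (-2.56 ± 0.22), the aldehyde dehydrogenase Aldh3a1 (-1.96 ± 0.44 [-2.58]), Cyp2s1 (-1.49 ± 0.14), Cyp1b1 (-1.48 ± 0.18) and Gstp1 (-1.23 ± 0.18). Nqo1, which reduces quinones in a single step, read 2.45, 3.70, 2.64, 2.53 and 2.09 in forestomach and 0.05, -1.61, -0.63, -1.35 and -1.61 in lung. Gsta1 read 4.48, 6.88, 6.77, 5.22 and 4.67 and 0.70, -1.63, -1.04, -1.96 and -2.17. All 5 forestomachs were above all 5 lungs for both. Gsta1 has close copies, and whether they share its probe's signal was not tested. The epoxide hydrolase Ephx1 was higher in lung (0.80 ± 0.14), and the electron donor Por was not called (0.46 ± 0.15).

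The aryl hydrocarbon receptor, which binds planar aromatic compounds, and its targets were read next. Ahr read 1.89, 2.28, 2.05, 2.08 and 1.98 in lung and -0.43, 0.02, -0.31, -0.56 and -0.31 in forestomach, a difference of 2.38 ± 0.11 (adjusted p = 4.13e-05), with every lung above every forestomach. Its partner Arnt was not called (0.43 ± 0.12). Among targets, Cyp1a1 read 0.64, 0.84, 0.43, 1.51 and 1.57 in lung and 0.13, -0.12, -0.19, 0.03 and 0.15 in forestomach, was well above background on 4 lung arrays and no forestomach array, and was at least 1.4-fold higher in lung. Tiparp was also higher in lung (0.90 ± 0.13). Cyp1b1, Nqo1 and Aldh3a1 were higher in forestomach, and Cyp1b1 read -0.38, -1.12, -0.46, -0.56 and 0.22 there and -2.14, -2.12, -1.46, -2.18 and -1.81 in lung. Cyp1a2 was not well above background on any of the 10 arrays. Of 10 tested genes of this pathway 5 were called higher in lung and 3 higher in forestomach. Under median centring these were 5 and 1, with Cyp1b1 and Aldh3a1 no longer called, and with Cy5 alone 3 and 3.

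**Figure D5:**
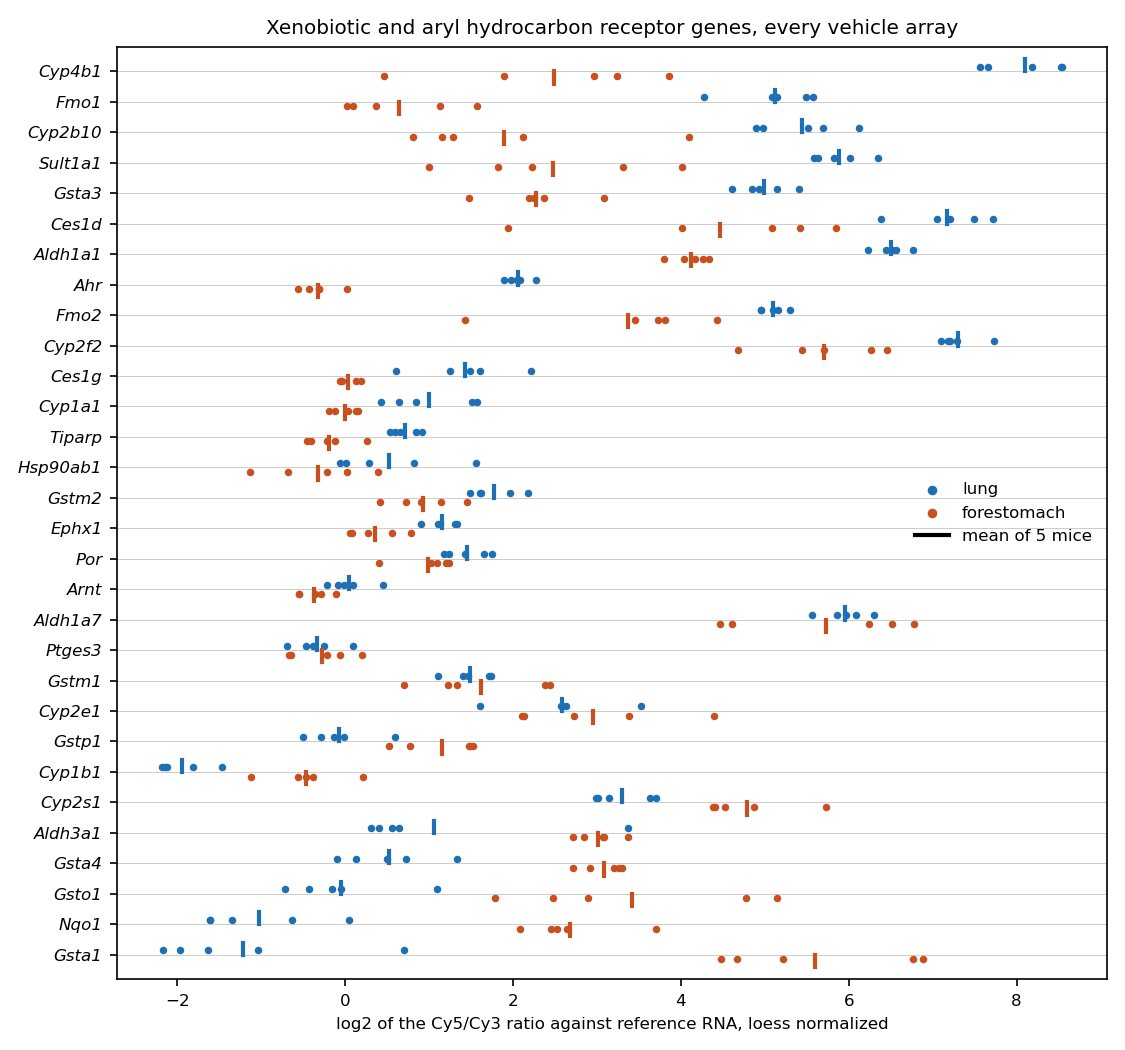
Log2 Cy5/Cy3 ratio (horizontal axis) of most of the tested xenobiotic and aryl hydrocarbon receptor genes (vertical axis, ordered by difference), 1 point per array, blue for lung and orange for forestomach, with the mean of 5 mice as a short line. Cyp4b1 is at the top with a difference of 5.61 and Gsta1 at the bottom with -6.83, and Ahr separates the tissues with a difference of 2.38.

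Genes of dividing cells were higher in forestomach. Of 21 tested, 18 were called higher in forestomach and none higher in lung, with a median of -1.30 (16 and -1.42 without the 2 arrays). Birc5 (survivin) differed by -2.10 ± 0.20, the nucleotide reductase subunit Rrm2 by -2.09 ± 0.19, cyclin Ccnb1 by -1.93 ± 0.19, topoisomerase Top2a by -1.59 ± 0.11 and Mki67, the antigen of cycling cells, by -1.30 ± 0.13. Mki67 read -2.05, -3.26, -2.22, -2.45 and -2.72 in forestomach and -3.51, -4.17, -3.46, -3.67 and -4.39 in lung, without overlap. These are differences on the ratio scale, and ratios below 0 mean less signal than the reference pool of cultured cells. Under median centring 4 were called higher in forestomach and 1 higher in lung, the median was -0.49, and Mcm2 and Mcm3 became 0.13 and 0.18 from -0.76 ± 0.18 and -0.70 ± 0.14.

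Of 15 tested genes that are often used to normalise expression, 7 were called, a share near the 45.6% of all tested genes. Actb (0.43 ± 0.27), Gapdh (0.36 ± 0.26), Ppia (0.00 ± 0.14), Tbp (0.07 ± 0.10), Sdha (0.13 ± 0.14) and Tfrc (0.09 ± 0.15) were among the 8 not called. Of 3 called higher in lung, B2m, the light chain of MHC class I, differed by 2.50 ± 0.13 and Gusb by 0.82 ± 0.18. Of 4 called higher in forestomach, Hprt differed by -1.11 ± 0.14, Pgk1 by -0.76 ± 0.22 and Rplp0 by -0.64 ± 0.16. Under median centring 6 were higher in lung and none higher in forestomach.

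The same contrast was then made in the 15 mice given 6.25, 12.5 or 25 mg of BghiP per kg body weight per day, which share no array with the vehicle mice. There 5988 probes (24.6%) were called higher in lung and 4187 (17.2%) higher in forestomach. Of the vehicle calls, 5392 (90.0%) of those higher in lung and 3533 (89.8%) of those higher in forestomach were called in the same direction, and 0 in the opposite. In the exposed mice Sftpc differed by 7.81 ± 0.27, Krt10 by -7.93 ± 0.12, Actg2 by -6.45 ± 0.20, Cyp4b1 by 5.97 ± 0.27 and Ahr by 2.36 ± 0.05. Other genes that were called in vehicle mice were not called in the exposed, among them Muc5b (0.47 ± 0.55), Scgb3a1 (0.83 ± 0.61, from 2.98 ± 0.64), Kcne2 (1.37 ± 0.70), Foxa1 (0.52 ± 0.30) and Wt1 (0.07 ± 0.17). A test of whether the tissue difference itself changed between vehicle and exposed mice passed for 0 of 24297 probes (limma, lowest adjusted p = 0.999), with 856 at an unadjusted p under 0.05.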

How the data were processed

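Each sample was hybridised to an Agilent SurePrint G3 Mouse 8x60K array of 62976 spots, of which 3671 were controls. The deposited scanner files, from Feature Extraction 10.7.3.1 with an mm9 header, hold the intensity of each spot in both channels, and the authors also deposited normalized log2 ratios of the same arrays, which served as an alternative (r of 0.992 to 0.999 with the ratios used here). The authors normalized median signals by LOWESS without background subtraction, and this was repeated with loess in limma 3.58.1 (R 4.3.3). Control spots were left out and outlier spots set to missing (at most 0.0758% of probe values). No spot was saturated. Array number limits the precision.

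Probes entered the fit if 4 or more of the 5 arrays of 1 tissue had them well above background in Cy5, giving 24297 of 55681 probes. The lung minus forestomach difference was fitted with limma lmFit and eBayes with the mouse as a block. Same-numbered tissues came from the same animal, and their deviations from the tissue means correlated at 0.184, 0.145, 0.422, 0.192 and 0.275 in mice 1 to 5. Symbols were matched from probe accessions to RefSeq (47.4% of probes; others stayed unnamed), and 413 of 521 list genes were tested. Of 2912 genes with more than 1 tested probe, 14 whose brightest probe was called had another probe called the opposite way. Genes whose brightest probe was not called while another was, such as Kdr, Tgm3 and Trp63, are not among these 14. Steps were tested on simulated data. Alternatives were background correction, scaling, the filter, the block and left-out mice.

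Named were the 12 largest called differences each way with the same sign in 5 mice, the receptor genes and, per list, its 4 largest members, 3 defining markers and called members against the list's median, with other list members added as examples. The members and lists were chosen with earlier results of these data known, and further examples after their values were seen. Some list genes are counted but not reported by name here. All 10 arrays entered the fit.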

Additional observations from a re-analysis of the deposited data

Results flagged for a closer look

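Single arrays lay far from the other 4 of their tissue in 29 of 122 groups searched (13 of 68 lists and 16 of 54 genes), by a gap rule that chance meets in about 1 group in 20. Most of these groups fell on the same arrays, so they are not independent.

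In the forestomach of mouse 2 lung genes were high. Its medians were 3.13 for alveolar type 1 cells (0.52 to 0.97 in the other forestomachs), 1.97 for type 2 cells, 0.53 for ciliated cells, 4.06 for club cells and 1.74 for heart muscle. Sftpd read 6.98, Mlc1 2.05, Sftpc 7.57, Clic5 4.15, Sftpa1 6.48, Inmt 3.86 and Hc 1.60. Ada was low there, at 6.09 against 7.54 to 7.87.

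In the lung of mouse 1 squamous and skeletal muscle genes were high. Its medians were 3.11 for the cornified envelope, 3.37 for suprabasal cells, 2.30 for basal cells (-0.01 to 0.29 in the other lungs) and 6.25 for skeletal muscle. Psapl1 read 5.70, Kprp 4.39, Lce3a 7.53, Crct1 7.01, Krt6b 1.95, Il1f5 1.56, Ada 6.11 and Spink5 4.88.

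The forestomach of mouse 5 had a fat cell median of 5.35 (0.12 to 1.58 in the others) and a Hox median of 0.42 (0.01 to 0.12). The lung of mouse 4 had a median of 0.05 for the aryl hydrocarbon receptor list (0.17 to 0.20 in the others), and the lung of mouse 5 one of 1.2 for T and NK cells (0.49 to 0.61).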

How the results depend on the processing

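The 5989 calls higher in lung and 3935 higher in forestomach stayed within 1.5 times under most alternatives, and 0 of them were called the opposite way in any. Median centring without loess gave 10268 and 811, a filter that required all 10 arrays above background gave 2567 and 2371 of 10618 probes, and a 2-fold minimum gave 3477 and 2018. The fit without the mouse as a block (no pairing) gave 5793 and 3733, so the pairing moved no count of calls by over 1.5 times. Leaving out each mouse gave 5274 to 6207 and 3467 to 4029. Leaving out the lung of mouse 1 and the forestomach of mouse 2 (without the block) gave 5865 and 3922, and leaving out mice 1 and 2 gave 5112 and 3615; both were chosen after the data were seen. Counts in exposed mice were 5981 and 4181 without the block and 5763 and 4353 with the deposited ratios. Probes well above background on every array of 1 tissue and on none of the other numbered 491 for lung and 28 for forestomach, and 513 to 1621 and 31 to 153 when a mouse was left out (lung 1058 without mouse 3 and 1621 without mouse 5, forestomach 153 without mouse 1 and 43 without mouse 3).

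Of 422 genes followed under 17 alternatives, the sign changed, in genes called in at least 1 of the fits compared, for Bnc1 with Cy5 alone (0.11), for Cd4 (0.60), Col4a5 (0.61), Ghrl (0.84), Hoxb6 (0.16), Mcm2 (0.13), Mcm3 (0.18) and Pkp3 (0.29) under median centring, for Myl7 without mouse 4 (0.88, from a range of -0.72 to 0.88 over the 5 left-out mice) and for Tnnc2 without mouse 1 (-1.28, from -1.28 to 1.09) and without mice 1 and 2 (-0.70). Calls were lost for 67 genes under median centring, 29 with the processed signals, 18 with Cy5 alone, 14 without the block, 20 without the 2 arrays and 13 to 24 when 1 mouse was left out. The cause was not tested. Among named genes, calls lost were Foxa1, Gata6, Gjb6, Hoxb6, Kcne2, Krt79, Pkp3, Reg3g and Wt1 without mouse 1; Bnc1, Clps (-3.34), Gkn2, Krt79, Muc5ac (-2.08), Pgk1 and Rspo1 without mouse 2; Bpifa1, Clps (-3.33), Gkn2, Hoxb6, Krt79, Muc5ac (-2.39), Myl4, Pgk1, Pkp3, Pkp4, Rplp0 and Rspo1 without mouse 3; Bnc1, Clps, Fgf10, Foxa1, Gata6, Gjb6, Kcne2, Krt79, Ovol1, Pgk1, Pkp3, Pkp4, Reg3g and Rspo1 without mouse 4; and Bnc1, Bpifa1, Foxa1, Gjb6, Hoxa2, Hoxb6, Kcne2, Pgk1, Pkp3, Reg3g and Wt1 without mouse 5. With the processed signals, differences of Alas2 (0.39), Fmo2 (0.11), S100a9 (0.04) and Tbx2 (0.40) fell below the call. Several splits of calls (lung and forestomach) moved with the processed signals. Among them were alveolar type 1 (8 and 1), reference (4 and 3), glandular stomach (0 and 3) and mesothelium genes (2 and 0). Ciliated (11 and 1), neutrophil (2 and 0), MHC class II (6 and 0) and alveolar macrophage genes (11 and 0) also moved. So did desmosome (1 and 9), xenobiotic (13 and 9) and identity factor genes (7 and 9). With Cy5 alone, glandular stomach (0 and 3), mesothelium (3 and 0), ciliated (11 and 1) and neutrophil genes (3 and 0) moved, among others. The median of fat cell genes, -1.11, lay between -1.70 and -0.28 when a mouse was left out, -0.28 without mouse 5 and -0.64 without mouse 3.

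Requiring all 10 arrays above background turned the medians of squamous basal cells (0.99), enteric cells (1.21) and keratins (0.54) positive, with fewer genes tested. Those of Hox genes (-0.61, 1 gene) and skeletal muscle (-2.01, 1 gene) turned negative. Under this filter the median of T and NK cells was 0.03 with 0 of 2 genes called, that of ciliated cells 0.53 and that of the cornified envelope -2.32. The median of MHC class II was 0.94 (3 genes). That of alveolar type 1 cells was 1.09, with 3 of 6 genes called higher in lung and 1 higher in forestomach. A probe near background in 1 tissue has a compressed ratio, and fewer probes were above background on forestomach than on lung arrays.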

Other observations

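Some club cell genes were measured on forestomach arrays where Sftpa1 and Sftpb were not well above background. Scgb1a1 read 5.18, 6.26, 3.01, 5.34 and 5.04 in the forestomachs of mice 1 to 5 and Cyp2f2, a P450 of club cells, read 5.70, 6.45, 4.68, 5.44 and 6.26, each well above background on 5 of 5 arrays. Sftpa1 and Sftpb were well above background on the array of mouse 2 only, Sftpd on 2 forestomach arrays and Sftpc on 3, while Abca3, Lamp3 and Lyz1 of the same list were above background on all 5. The rest of the club cell list varied in forestomach: Cbr2, a carbonyl reductase of the airway, and Aldh1a1 were above background on all 5 arrays, Scgb3a1, Cldn10, Muc5b and Bpifa1 on 1 or 2, Bpifb1 on 4, and Gabrp and Reg3g on none.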
